A study of Mus musculus with 15 samples.

Results

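Levels of 10 genes that mark liver sinusoidal endothelial cells were followed over 4 groups of mouse tissue: Stab1, Stab2, Lyve1, Clec4g, Oit3, Fcgr2b, Gpr182, Mrc1, Dnase1l3 and F8. They were taken by name, and all 10 were among the 15622 genes tested. The study asked whether transplanted hepatocytes can build a liver inside a kidney, and RNA of each tissue sample was measured on 1 array. All mice were female and FVB/N. The host mice were wild type and received the plant toxin monocrotaline at 70 mg/kg in 2 intraperitoneal doses 2 weeks apart. They were then given 1000000 hepatocytes under the kidney capsule, from FVB/N donors with a human alpha-1-antitrypsin (hA1AT) transgene. The age given for recipients was 7 to 9 weeks, and that for donors 8 to 20 weeks. At 250 to 300 days, at an age of 48 to 55 weeks, 4 samples each were taken of the liver tissue dissected out of the kidney (neo-liver), of the injured liver (host liver) and of the kidney (host kidney). The livers of 3 normal mice of 20 weeks (control liver) had neither toxin nor transplant, so age and treatment cannot be told apart in comparisons with them.

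Sinusoidal endothelial cells line the liver's capillaries. They have open pores and no continuous basement membrane, and they clear waste molecules from blood through scavenger receptors and lectins. Endothelium of other organs, kidney included, mostly lacks these receptors, and sinusoidal cells that lose their pores take on features of ordinary capillaries. Several of the genes are not private to this cell: Mrc1, Stab1, Fcgr2b and Lyve1 are also made by macrophages, and Lyve1 by lymphatic vessels.

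Levels are log2 signals in which 0 is the 75th percentile of the array, and each gene's level is compared only with itself across groups. In bulk tissue, fewer cells of a type and less RNA per cell cannot be told apart. A gene was called different at an adjusted p under 0.05 over all genes in limma. Replicate numbers were taken to stand for host mice, since the 3 tissues with the same number deviated together. The neo-liver and control liver arrays shared a slide, while host livers (2 slides) and host kidneys (1 slide) shared none with another group. In every comparison with host liver or host kidney, neo-liver against host liver included, slide and group therefore cannot be told apart. The labelled tissues held their defining markers: the hepatocyte marker Alb averaged 10.11 in neo-liver, 10.90 in host liver, -0.12 in host kidney and 10.71 in control liver. The kidney tubule marker Umod averaged 5.59 in neo-liver, -4.20 in host liver (above background on 2 of 4 arrays) and 8.91 in host kidney, and was below background on all 3 control liver arrays. Over 28 kidney epithelium markers, the neo-liver arrays carried 22.0%, 48.6%, 19.9% and 35.7% of the host kidney signal for mice 1 to 4, and the host and control liver arrays at most 0.0160%. If that share were kidney tissue in the dissected piece, it would by itself lower a gene found only in the liver part by 0.36, 0.96, 0.32 and 0.64 on the log2 scale.

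RefSeq's promoter table (build GRCm38.p6) held 6 of the 10 genes, and 4 of its windows, from 250 bases before to 50 after the gene's start, are shown for the genes with large and small organ differences: Stab2 and Clec4g, then Fcgr2b and Stab1. Each window is 300 bases, written 5′ to 3′ on the gene's strand, and capitals mark the letters of AGATAA or AGATAG (bound by GATA factors), TTCCGG (ETS factors) or TGCTGA (MAF factors), searched on both strands with no overlap found between them.
Stab2, chr10:87007893-87008192, minus strand: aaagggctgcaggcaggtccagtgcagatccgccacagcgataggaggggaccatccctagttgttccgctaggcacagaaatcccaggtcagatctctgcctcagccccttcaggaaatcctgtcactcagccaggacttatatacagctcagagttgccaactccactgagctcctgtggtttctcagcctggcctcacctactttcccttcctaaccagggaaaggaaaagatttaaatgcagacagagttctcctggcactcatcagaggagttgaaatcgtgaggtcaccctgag
Clec4g, chr8:3720602-3720901, minus strand: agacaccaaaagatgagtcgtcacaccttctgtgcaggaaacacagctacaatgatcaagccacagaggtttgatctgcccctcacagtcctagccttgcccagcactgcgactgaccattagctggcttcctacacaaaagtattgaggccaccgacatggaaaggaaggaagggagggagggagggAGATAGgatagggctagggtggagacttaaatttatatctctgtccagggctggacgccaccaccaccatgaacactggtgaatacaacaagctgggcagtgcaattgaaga
Fcgr2b, chr1:170976022-170976321, minus strand: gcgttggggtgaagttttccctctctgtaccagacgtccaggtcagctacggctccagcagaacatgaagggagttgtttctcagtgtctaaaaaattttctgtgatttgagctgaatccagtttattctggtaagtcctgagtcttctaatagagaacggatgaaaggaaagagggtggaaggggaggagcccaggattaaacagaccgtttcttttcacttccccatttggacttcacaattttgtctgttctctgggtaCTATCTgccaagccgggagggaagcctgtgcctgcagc
Stab1, chr14:31168592-31168891, minus strand: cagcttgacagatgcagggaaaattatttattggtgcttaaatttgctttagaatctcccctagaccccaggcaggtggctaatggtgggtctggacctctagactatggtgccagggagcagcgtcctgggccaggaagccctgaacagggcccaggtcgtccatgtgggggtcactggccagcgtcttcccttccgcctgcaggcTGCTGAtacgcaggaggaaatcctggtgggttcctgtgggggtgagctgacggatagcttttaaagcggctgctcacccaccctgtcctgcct
AGATAG stood in 3 of the 6 windows (Clec4g, Fcgr2b and F8), and in 8.95% of all 32851 windows of that length. TGCTGA stood in 1 of the 6, that of Stab1, and in 19.5% of all windows. AGATAA and TTCCGG were in 0 of the 6, and in 11.2% and 14.9% of all windows. The windows of Stab2 and Mrc1 held none of the 4 motifs. These are letter matches only.

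In neo-liver, all 10 genes were higher than in the kidney that surrounded it. In limma, 10 of 10 were called higher and 0 lower (23.2% of all genes tested were called higher and 29.5% lower), and the median difference of the 10 was 3.44 on the log2 scale, against -0.09 over all genes. The values of the groups did not overlap for 9 of the 10 (21% of all genes were higher without overlap). F8 was the exception.

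Among the scavenger receptors, Stab2, which takes up hyaluronan, was at 3.37, 3.17, 3.26 and 2.63 in neo-livers of mice 1 to 4, against -3.01, -3.23, -3.66 and -3.27 in their kidneys. The groups lie far apart, and neo-liver was 84.5-fold higher (adjusted p = 1.00e-11). Its relative Stab1, a receptor for modified lipoproteins and other waste that macrophages also carry, was at 3.49, 2.33, 2.57 and 2.94 in neo-liver and at 1.08, 0.97, 1.05 and 1.45 in host kidney. That is a difference of 1.70 ± 0.27 (SE), or 3.24-fold (adjusted p = 0.000154). Mrc1, the mannose receptor, was between 1.89 and 2.66 in neo-liver and between -1.25 and -0.27 in host kidney, an 8.58-fold difference (adjusted p = 1.07e-07). Fcgr2b, the inhibitory IgG receptor that clears small immune complexes, differed least of the 10, by 0.86 ± 0.19 (SE, adjusted p = 0.00176). It was between 1.78 and 2.28 in neo-liver and between 1.04 and 1.22 in host kidney, where it was well above background on 4 of 4 arrays.

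Lyve1, a second hyaluronan receptor, was at 0.23, -0.52, 0.17 and -0.67 in neo-liver and at -7.17, -5.97, -5.78 and -4.97 in host kidney. On 3 of the 4 kidney arrays its spot was not well above background, so the measured 54.7-fold difference (adjusted p = 1.26e-07) rests on dim values. The lectin Clec4g, which binds glycans on cells and viruses, was between 4.53 and 5.37 in neo-liver and between -3.42 and -3.03 in host kidney, a 275-fold difference (adjusted p = 2.56e-12). Oit3, a protein with a zona pellucida domain known mainly from liver, was between 1.52 and 2.23 in neo-liver and between -6.75 and -5.33 in host kidney. It too was above background on only 1 of 4 kidney arrays, and its measured difference was 263-fold (adjusted p = 1.36e-11).

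Of the remaining genes, the secreted nuclease Dnase1l3, which degrades DNA in circulating particles, was between -1.07 and -0.49 in neo-liver and between -4.74 and -4.50 in host kidney, a 13.7-fold difference (adjusted p = 2.44e-10). Gpr182, an atypical chemokine receptor of sinusoidal and lymphatic endothelium, was between 2.65 and 3.84 in neo-liver and between -0.13 and 0.41 in host kidney, 7.84-fold apart (adjusted p = 1.59e-06). F8, the gene of coagulation factor VIII, was between -2.20 and -0.27 in neo-liver (mouse 4 lowest, at -2.20), against -2.30, -2.19, -2.13 and -2.26 in host kidney. Neo-liver 4 thus lay within the kidney range, and the difference of 1.11 ± 0.34 (SE, adjusted p = 0.0139) is carried by the other three arrays. The second F8 probe, above background on 2 of 4 neo-liver arrays, differed by 0.18, and the mean over both probes by 0.64 (adjusted p = 0.0628). After the kidney share was subtracted from each neo-liver array, the first probe's difference was 0.82 (adjusted p = 0.0894), and 1.39 ± 0.39 (adjusted p = 0.00711) when the rest was also scaled up to a whole.

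**Figure D1:**
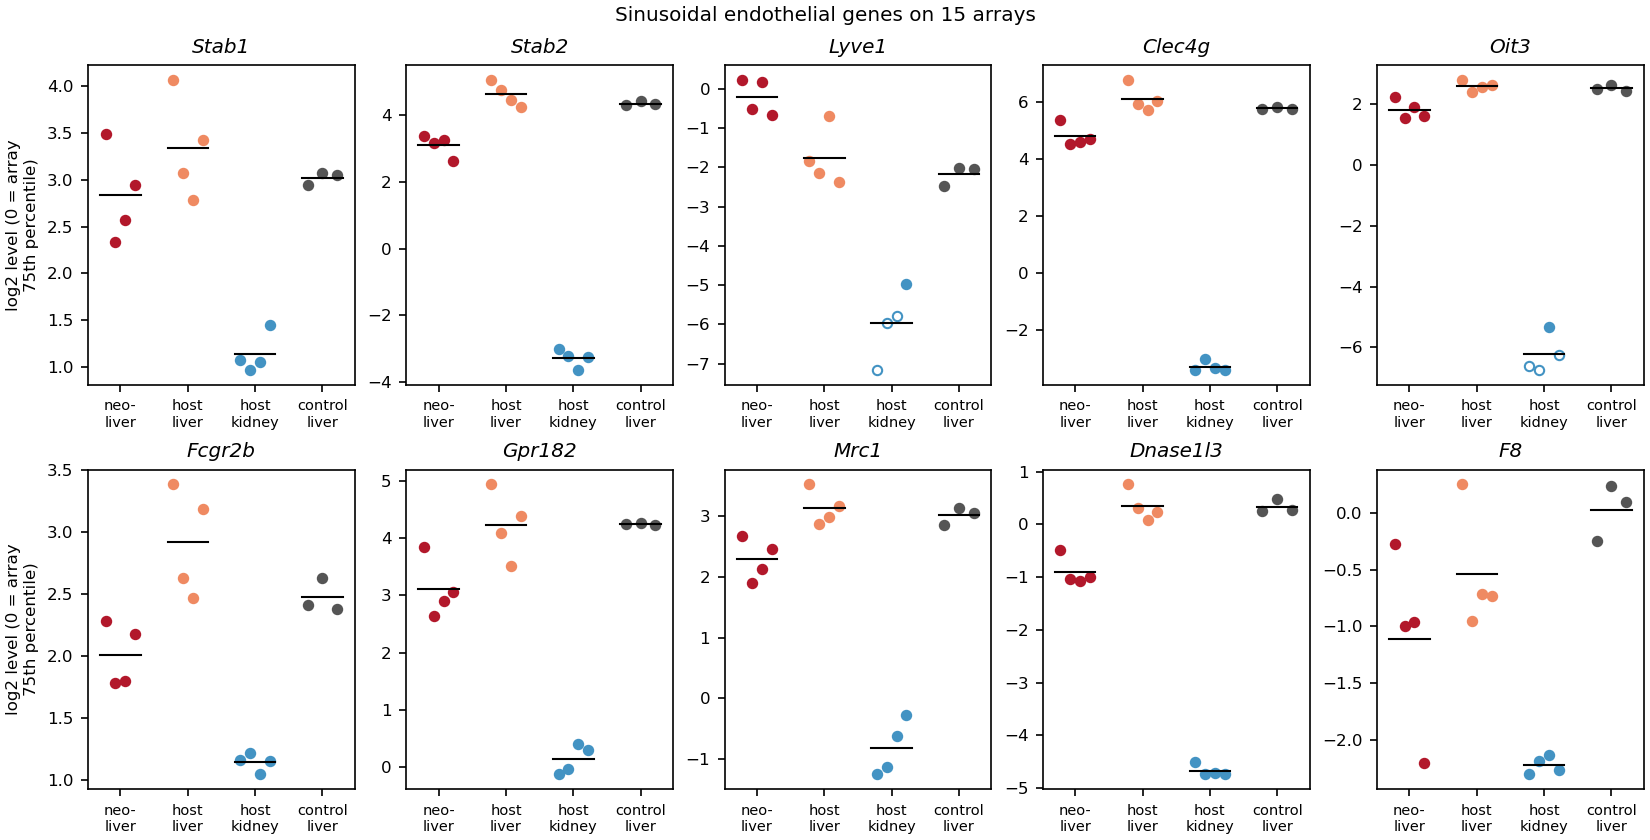
Log2 level (0 is the array's 75th percentile) of each of the 10 genes on 15 arrays, by group: neo-liver, host liver, host kidney and control liver. Points are arrays, lines are group means and open points are spots not well above background. Host kidney is the lowest group for all 10 genes, and Lyve1 is highest in neo-liver, between -0.67 and 0.23.

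The genes did not all reach the level of liver. Against host liver of the same mice, 7 of 10 were called lower in neo-liver, 1 higher and 2 neither (31.5% of all genes were called lower and 17.1% higher). The median difference of the 10 was -0.88, against -0.21 over all genes. The values of the groups did not overlap for 6 genes that were lower and 1 that was higher (22.9% of all genes were lower and 13.7% higher without overlap). With quantile normalization, 4 of 10 were called lower and 1 higher, and all genes split into 2688 higher and 2598 lower, in place of 2670 and 4921. With normexp background correction that split was 1819 higher and 5509 lower.

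Stab2 fell by 1.53 ± 0.20 (SE, adjusted p = 4.79e-05), with host liver at 5.07, 4.76, 4.45 and 4.25. Clec4g fell by 1.31 ± 0.22 (adjusted p = 0.000387), with host liver at 6.77, 5.92, 5.71 and 6.02. Dnase1l3 fell by 1.24 ± 0.16 (adjusted p = 4.21e-05), with host liver at 0.77, 0.30, 0.08 and 0.24. For these 3 genes every neo-liver array lay below every host liver array. Within mice, the difference in Dnase1l3 was between -1.34 and -1.14, that in Clec4g between -1.39 and -1.12 and that in Stab2 between -1.70 and -1.19, so 4 of 4 mice were lower by like amounts.

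Gpr182 fell by 1.12 ± 0.29 (adjusted p = 0.00593), although the 2 groups overlapped, since neo-liver 1 was at 3.84 and host liver 3 at 3.52. Fcgr2b fell by 0.90 ± 0.19 (adjusted p = 0.00172), Mrc1 by 0.85 ± 0.23 (adjusted p = 0.00843) and Oit3 by 0.79 ± 0.26 (adjusted p = 0.0225). Oit3 lost the call when host liver 1, neo-liver 2 or neo-liver 4 was left out, the highest adjusted p being 0.0615. Stab1 differed by -0.51 (95% interval -1.09 to 0.08, adjusted p = 0.138) and F8 by -0.57 (-1.30 to 0.16, adjusted p = 0.178), and neither was called. Without neo-liver 1 both were, at -0.72 (adjusted p = 0.0352) and -0.85 (adjusted p = 0.0446), and F8 also as the mean over its probes, at -0.79 (adjusted p = 0.0282). In 4 of 4 mice, Stab1 and F8 nevertheless had lower values in the neo-liver than in that mouse's own liver.

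Lyve1 went the other way. Neo-liver was at 0.23, -0.52, 0.17 and -0.67, against -1.83, -2.14, -0.69 and -2.36 in host liver, with no overlap. The rise was 1.56 ± 0.43 (SE), or 2.94-fold (adjusted p = 0.00985), and it was present in 4 of 4 mice, at between 0.86 and 2.06. Host liver 3 stood closest to neo-liver, and without it the rise was 1.91.

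Against control liver the picture was similar, though both comparisons use the same neo-liver arrays and are not independent. In limma, 7 of 10 were called lower and 1 higher (29.8% of all genes were called lower and 20.4% higher). The median difference was -0.85, against -0.15 over all genes. The groups did not overlap for 8 genes that were lower and 1 that was higher (35.2% of all genes were lower and 21.9% higher without overlap). Stab2 fell by 1.25 ± 0.22 (adjusted p = 0.000352), with control liver at 4.31, 4.42 and 4.33. Dnase1l3 fell by 1.23 ± 0.17 (adjusted p = 6.86e-05), with control liver at 0.25, 0.48 and 0.28. Gpr182 fell by 1.14 ± 0.31 (adjusted p = 0.00766), F8 by 1.14 ± 0.37 (adjusted p = 0.0199) and Clec4g by 0.97 ± 0.24 (adjusted p = 0.00454). Mrc1 fell by 0.73 ± 0.25 (adjusted p = 0.0254) and Oit3 by 0.70 ± 0.28 (adjusted p = 0.0490).

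The calls of Oit3, Mrc1 and F8 against control liver did not hold in every fit. When each of the 7 arrays was left out in turn, Stab2, Dnase1l3, Gpr182 and Clec4g were called lower in 7 of 7 fits, F8 in 5, Mrc1 in 3 and Oit3 in 1. Without control liver 2 or without control liver 3, 4 of 10 genes were called lower (24% and 24.6% of all genes). Fcgr2b differed by -0.46 (95% interval -0.90 to -0.02, adjusted p = 0.0744) and Stab1 by -0.19 (-0.82 to 0.44, adjusted p = 0.615). For Stab1 a fall of up to 0.82 is within the interval. In a fit of these 2 groups alone the F8 difference is by construction the same, at -1.14 ± 0.42. With that fit's own estimate of spread F8 was not called (adjusted p = 0.0557), and 6 of 10 genes were called lower (28.5% of all genes). With quantile normalization 3 of 10 were called lower, and all genes split into 3610 higher and 3300 lower, in place of 3184 and 4651.

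Lyve1 rose here too, by 1.98 ± 0.47 (SE), or 3.94-fold (adjusted p = 0.00337), with control liver at -2.47, -2.02 and -2.04. It was called higher in 7 of 7 fits with an array left out. Of the lymphatic endothelium list's 9 tested genes, 3 were called higher than control liver and 3 lower (20.4% and 29.8% of all genes). Lyve1 belongs to that list and is 1 of the 3 that rose. The others were Pdpn, which podocytes of the kidney also make, at 3.84 ± 0.28 (adjusted p = 1.76e-07), and Fxyd6 at 2.03 ± 0.48 (adjusted p = 0.00317). Prox1, the transcription factor that defines lymphatic vessels and is also made by hepatocytes, fell by 1.12 ± 0.32 (adjusted p = 0.0103). The summed signal of the 9 genes, Lyve1 included, was between 3.76 and 5.26 times the array's 75th percentile in neo-liver. It was between 2.94 and 3.59 in host liver, between 3.63 and 4.52 in host kidney and between 2.67 and 3.35 in control liver. A sum without Lyve1 was not taken. The part of lymphatic vessels in the Lyve1 difference was not tested.

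Kidney signal was present in every neo-liver sample, and its values stand beside these falls. The array with the largest kidney share, neo-liver 2, was the lowest of its group for 6 of the 10 genes, and neo-liver 1, with 22.0%, the highest for all 10. Neo-liver 3, with the smallest share, was the highest for 0 and the lowest for 1. The hepatocyte list fell as well: 9 of 12 genes were called lower than in host liver (median -0.88) and 7 of 12 lower than in control liver (median -0.60). When the kidney share was subtracted and the rest scaled up to a whole, 4 of the 10 sinusoidal genes were called lower than host liver and 1 higher, and 2 were lower than control liver and 1 higher. Over all 15622 genes, the same scaling called 1792 higher and 4380 lower than host liver, and 2448 higher and 4403 lower than control liver. Of the hepatocyte list, it called 3 of 12 lower than host liver (median -0.32) and 2 of 12 lower than control liver (median -0.05). The median difference of the 10 sinusoidal genes was then -0.48 against host liver and -0.31 against control liver. With subtraction alone, 7 of the 10 were called lower than host liver and 8 lower than control liver, and 1 higher in each, while over all genes 10067 and 9181 were lower and 1062 and 1420 higher, with medians of -0.87 and -0.805. Under the full scaling, Stab2 remained lower, by 0.96 ± 0.21 than in host liver (adjusted p = 0.00372) and by 0.68 ± 0.23 than in control liver (adjusted p = 0.0269). Dnase1l3 did too, by 0.71 ± 0.17 (adjusted p = 0.00640) and by 0.70 ± 0.18 (adjusted p = 0.00856). Clec4g was lower than in host liver by 0.74 ± 0.22 (adjusted p = 0.0175) but not called against control liver, at -0.40 (adjusted p = 0.183). Fcgr2b was lower than in host liver by 0.63 ± 0.20 (adjusted p = 0.0247).

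Under that scaling Oit3, Mrc1, Gpr182, F8 and Stab1 were called in neither comparison. Oit3, for example, differed by -0.22 from host liver (adjusted p = 0.483) and by -0.14 from control liver (adjusted p = 0.701). Lyve1 was higher by 2.12 ± 0.42 than in host liver (adjusted p = 0.00208) and by 2.54 ± 0.45 than in control liver (adjusted p = 0.000751). With the share subtracted and no rescaling, Lyve1 was higher by 1.55 ± 0.43 than in host liver (adjusted p = 0.00635) and by 1.97 ± 0.47 than in control liver (adjusted p = 0.00249), close to the values without subtraction. This scaling, chosen after the data were seen, assumes that the kidney tissue of the sample has the mean signal of host kidney. Over all genes its median difference was -0.30 against host liver and -0.24 against control liver.

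**Figure D2:**
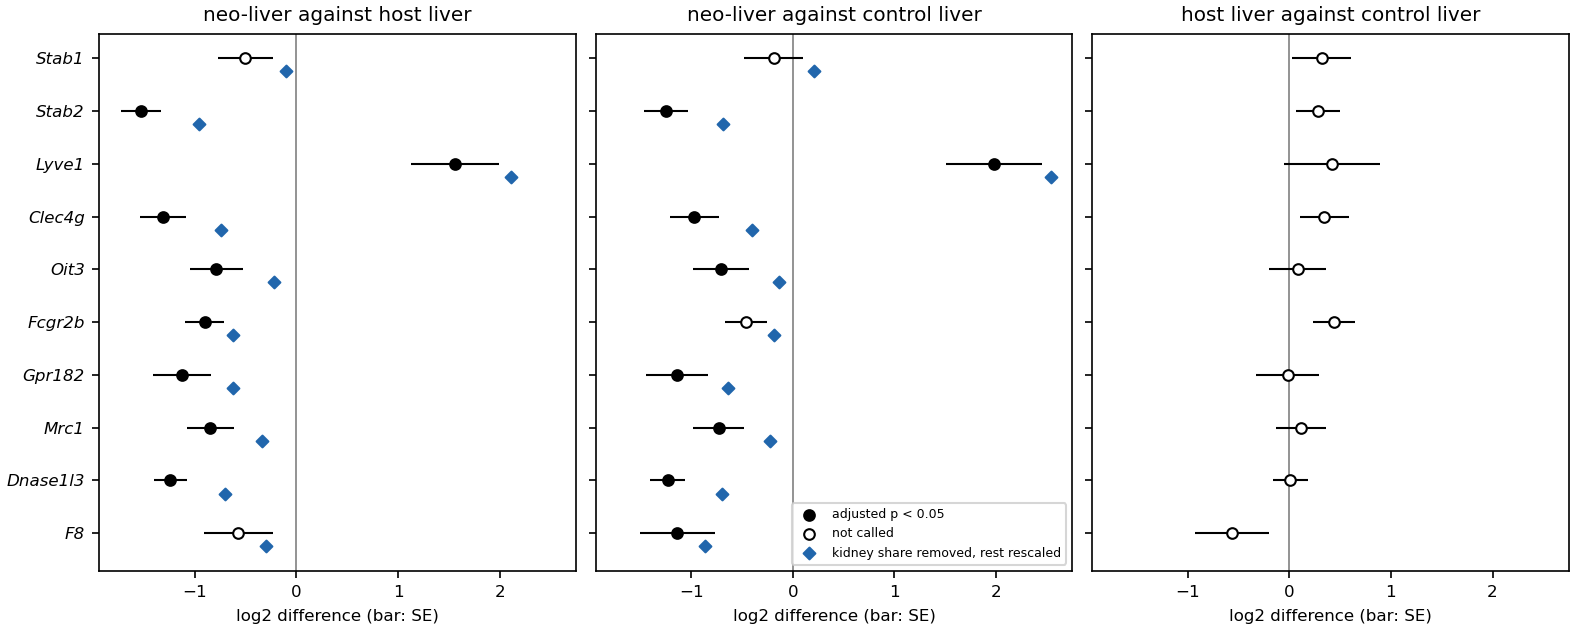
Log2 differences of the 10 genes, with standard errors, in neo-liver against host liver, neo-liver against control liver, and host liver against control liver. Filled points have an adjusted p under 0.05, open points do not, and diamonds give the difference after the kidney share was subtracted and the rest rescaled. Lyve1 alone lies above 0 in both neo-liver panels by each measure, at 1.56 and 1.98, and Stab2 and Dnase1l3 are called lower by each.

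The injured host liver was not shown to differ from the younger control liver in any of the 10 genes. In limma 0 of 10 were called in either direction (13.4% of all genes were called higher and 11.2% lower), with 1, Fcgr2b, at an unadjusted p under 0.05. All 10 pairs of groups overlapped (37.5% of all genes did not), and the median difference was 0.20, against 0.08 over all genes. The intervals show what sizes remain possible. Dnase1l3 differed by 0.01 (95% interval -0.36 to 0.38), Stab2 by 0.28 (-0.18 to 0.74) and Mrc1 by 0.12 (-0.42 to 0.65). The intervals of Lyve1, from -0.59 to 1.43, and F8, from -1.35 to 0.23, were wider. Without host liver 3, Fcgr2b was called higher, by 0.59 (adjusted p = 0.0466). Host liver arrays varied more than control liver arrays: Gpr182 was at 4.95, 4.09, 3.52 and 4.38 in host liver and at 4.24, 4.27 and 4.23 in control liver. Host liver 1 was the highest of its group for 9 of the 10 genes.

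Both livers stood above kidney throughout. Against host kidney, 10 of 10 genes were called higher in host liver (39.6% of all genes were), from 1.68 ± 0.34 for F8 to 9.41 ± 0.22 for Clec4g. Against control liver, 10 of 10 were called lower in host kidney (36.3% of all genes were), by between 1.33 ± 0.20 for Fcgr2b and 9.07 ± 0.24 for Clec4g. For 7 of the 10 genes the means ran, high to low, host liver, control liver, neo-liver and host kidney. For Gpr182 and F8 control liver came before host liver, and for Lyve1 the order was neo-liver, host liver, control liver and host kidney. In all 10 orders host liver and control liver were neighbours whose difference was not called. Among other neighbours, neo-liver and control liver were not called different for Stab1 and Fcgr2b, nor neo-liver and host liver for F8.

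A tissue may hold more or less endothelium of any kind, so each gene was also set against the mean of 18 general endothelium genes on the same array. That mean was 0.61 ± 0.17 in neo-liver, 0.89 ± 0.24 in host liver, 0.55 ± 0.08 in host kidney and 0.60 ± 0.03 in control liver (SD, n = 4, 4, 4 and 3). Of the 18 genes, 2 were called higher and 2 lower in neo-liver than in control liver, 0 higher and 3 lower than in host liver, and 4 higher and 2 lower than in host kidney. Over all genes those shares were 20.4% and 29.8%, 17.1% and 31.5%, and 23.2% and 29.5%. Relative to the endothelium mean, Stab2 was 2.49 ± 0.32 in neo-liver, 3.75 ± 0.29 in host liver, -3.85 ± 0.35 in host kidney and 3.75 ± 0.03 in control liver. Lyve1 was -0.81 ± 0.37 in neo-liver, -2.64 ± 0.85 in host liver, -6.53 ± 0.86 in host kidney and -2.78 ± 0.25 in control liver. With every array centred on this mean, neo-liver had 8 of the 10 genes called lower and 1 higher against control liver, 6 lower and 1 higher against host liver, and 10 higher against host kidney. Over all genes this centring called 2869 higher and 3395 lower against control liver, 3239 higher and 871 lower against host liver (in place of 2670 and 4921), and 2836 higher and 4242 lower against host kidney. Stab1 was called in neither liver comparison, at -0.20 against control liver (adjusted p = 0.482) and -0.23 against host liver (adjusted p = 0.440). Oit3 lost its call against host liver, at -0.51 (adjusted p = 0.117), and Fcgr2b gained one against control liver, at -0.47 (adjusted p = 0.0278). Host kidney held the general endothelium genes at 0.55, near the 0.61 of neo-liver. Kidney tissue in a neo-liver sample would therefore count in this mean. The part of kidney endothelium in these differences was not tested.

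**Figure D3:**
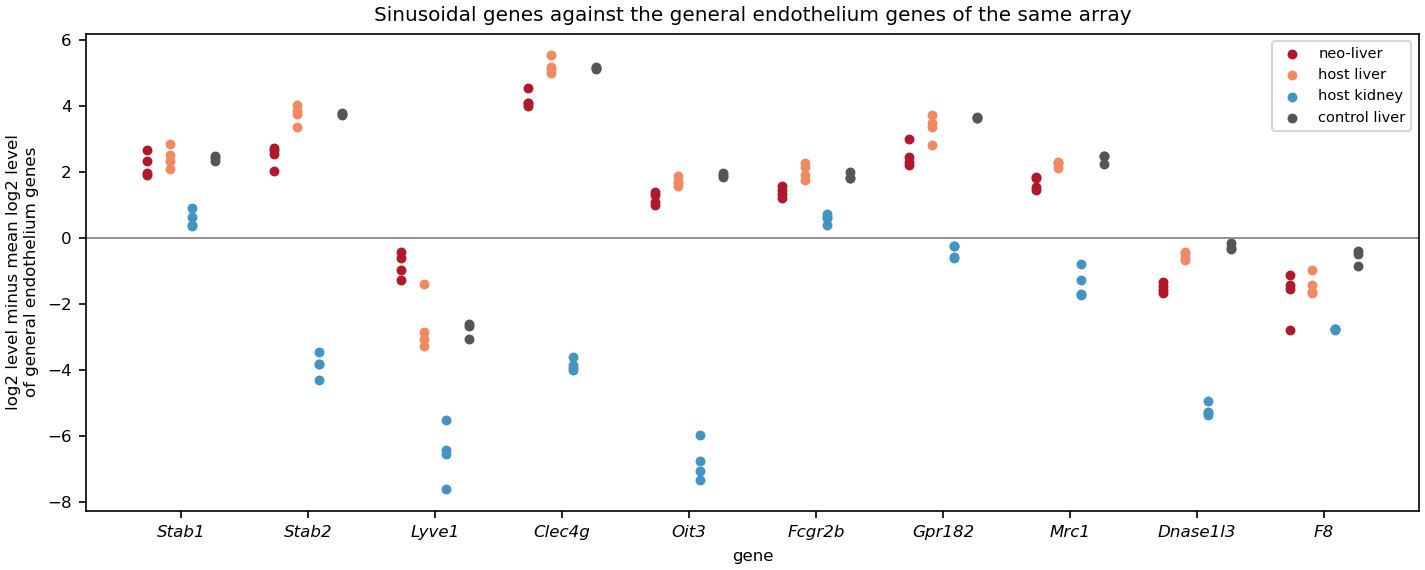
Log2 level of each of the 10 genes minus the mean log2 level of 18 general endothelium genes of the same array. Points are arrays, coloured by group: neo-liver, host liver, host kidney and control liver. Stab2 averages 2.49 in neo-liver, 3.75 in host liver, -3.85 in host kidney and 3.75 in control liver on this scale.

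The other endothelial lists show what surrounded these genes. Of all genes, 20.4% were called higher and 29.8% lower in neo-liver than in control liver. Against host liver the shares were 17.1% and 31.5%. Of 19 genes of capillary and continuous endothelium, 12 were called higher in neo-liver than in control liver and 0 lower (median 1.10), and 10 higher than in host liver and 0 lower (median 1.04). Among them were Esm1, a proteoglycan of growing vessel tips, measured at 6.50 ± 0.82 against control liver (adjusted p = 2.73e-05), where 1 of 3 control arrays was above background, and Sparcl1, a matrix protein, at 3.33 ± 0.67 (adjusted p = 0.00105). Apln, the ligand apelin, was below background in both livers and at least 4.15-fold higher than in control liver (adjusted p = 8.54e-06) and at least 3.13-fold higher than in host liver (adjusted p = 2.82e-05). Kidney makes these genes too: host liver had 15 of the 19 called lower than host kidney and 2 higher. With the kidney share subtracted and the rest rescaled, 8 of 19 were called higher and 2 lower than in control liver, and 5 higher and 2 lower than in host liver. Esm1 was then higher by 3.95 ± 1.23 against control liver (adjusted p = 0.0201) and by 1.51 ± 1.14 against host liver (adjusted p = 0.295), and Sparcl1 by 1.62 ± 1.29 against control liver (adjusted p = 0.327). Host liver, whose estimated kidney share was at most 0.0160%, had 5 of 19 called higher than control liver and 1 lower, among them Col4a1, a basement membrane collagen, at 1.22 ± 0.31 (adjusted p = 0.0119).

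Of 46 further sinusoidal genes listed, 41 were tested. In neo-liver 19 of them were called higher and 10 lower than in host kidney (23.2% and 29.5% of all genes). Gata4, the transcription factor that sets sinusoidal identity in mouse liver and is also made by stellate cells, was higher by 7.03 ± 0.40 (adjusted p = 5.78e-09), with 1 of 4 kidney arrays above background. Clec1b, a lectin receptor, was higher by 4.54 ± 0.31 (adjusted p = 4.00e-08). Against control liver 8 of 41 were called higher and 5 lower (20.4% and 29.8% of all genes). Against host liver 6 were higher and 9 lower (17.1% and 31.5% of all genes). The list's median differences were 0.04 and -0.27, against -0.15 and -0.21 over all genes. Cldn5, a tight junction protein, fell by 1.26 ± 0.23 against control liver (adjusted p = 0.000589) and by 1.50 ± 0.21 against host liver (adjusted p = 0.000102). Cldn5 was counted in this list and not in that of capillary and continuous endothelium. Maf, a transcription factor of sinusoidal endothelium and macrophages, rose by 0.92 ± 0.15 against host liver (adjusted p = 0.000317). Host kidney had more Maf than either: host liver differed from host kidney by -1.58 and neo-liver from host kidney by -0.66. Cyp4b1, an oxidase that kidney makes at a higher level than liver in these arrays, rose by 2.88 ± 0.23 against control liver (adjusted p = 4.81e-07) while it was lower by 1.39 ± 0.22 than in host kidney (adjusted p = 0.000124).

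Of 25 partners in scavenger uptake and lysosomal breakdown, neo-liver had 13 called lower and 3 higher against host liver. Of all genes, 31.5% were lower and 17.1% higher. Against control liver 7 of the 25 were lower and 4 higher (29.8% and 20.4% of all genes). The list's median differences were -0.40 and -0.26, against -0.21 and -0.15 over all genes. Lrp1, an uptake receptor shared by hepatocytes, fell by 1.12 ± 0.22 against host liver (adjusted p = 0.00101). Hyal1, a hyaluronidase that degrades what Stab2 takes up, fell by 1.05 ± 0.35 against host liver (adjusted p = 0.0231) and by 1.87 ± 0.37 against control liver (adjusted p = 0.00103). Dab2, an endocytic adaptor that kidney tubule makes in quantity, rose by 2.42 ± 0.26 and 2.61 ± 0.28 against host and control liver (adjusted p = 8.86e-06 and 7.35e-06). Lgmn, a lysosomal protease, rose by 0.99 ± 0.18 and 1.66 ± 0.19 (adjusted p = 0.000631 and 1.47e-05). Both were lower than in host kidney, by 1.34 ± 0.26 and 0.66 ± 0.18 (adjusted p = 0.000791 and 0.00751).

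Because Mrc1, Stab1, Fcgr2b and Lyve1 are also macrophage genes, the 17 Kupffer cell and macrophage genes stand beside them. Of these, 12 were called higher and 0 lower in neo-liver than in host kidney (23.2% and 29.5% of all genes). Against host liver 0 were higher and 6 lower (17.1% and 31.5% of all genes). Against control liver 1 was higher and 2 lower (20.4% and 29.8% of all genes). The list's medians against host and control liver were -0.64 and -0.21, with -0.21 and -0.15 over all genes. Vsig4, a complement receptor that defines Kupffer cells, averaged 4.26 ± 0.42 in neo-liver, 5.13 ± 0.59 in host liver, -4.69 ± 0.31 in host kidney and 4.64 ± 0.35 in control liver. Clec4f, the other defining marker, was below background on all kidney arrays and averaged 4.36 ± 0.71 in neo-liver, 5.43 ± 0.49 in host liver and 5.05 ± 0.41 in control liver. The list's summed signal was between 168 and 251 times the array's 75th percentile in neo-liver, between 272 and 460 in host liver, between 55.2 and 61.8 in host kidney and between 212 and 320 in control liver. The part of macrophages in the levels of the 4 shared genes was not tested.

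**Figure D4:**
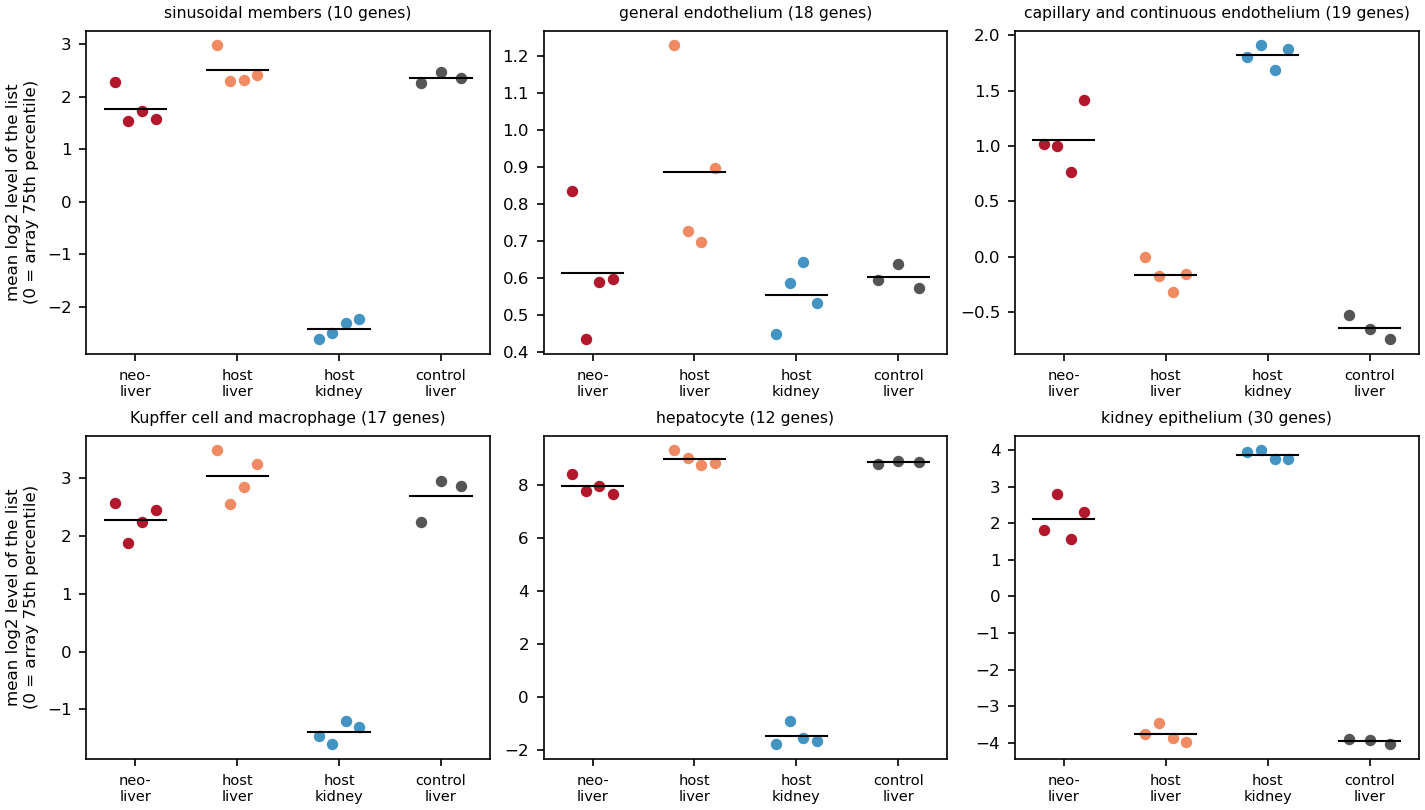
Mean log2 level of 6 gene lists on each of 15 arrays (0 is the array's 75th percentile): the 10 sinusoidal genes, general endothelium, capillary endothelium, Kupffer cells, hepatocytes and kidney epithelium. Points are arrays in neo-liver, host liver, host kidney and control liver, and lines are group means. The capillary list averages 1.05 in neo-liver, -0.16 in host liver, 1.82 in host kidney and -0.64 in control liver.

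Among themselves the 10 genes fell into profiles of different depth. Centred on its mean, Gpr182 was closest to Mrc1 (root mean square difference over the 15 arrays 0.28 on the log2 scale), Stab1 to Fcgr2b (0.36) and Clec4g to Oit3 (0.45), whereas Clec4g and Fcgr2b were 3.34 apart. Of all other genes, the 5 nearest to Stab2 were Sec14l2 (0.34), Nr5a2 (0.36), Apol9b (0.38), Nags (0.40) and Amy1 (0.41). The 5 nearest to Clec4g were Serpina1e (0.29), Igf1, Serpina1c, Mbl2 and Fgb (each 0.35). This likeness is dominated by the gap between liver and kidney, and in neo-liver against control liver these 10 neighbours differed by between -1.72 for Nags and -0.32 for Fgb.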

How the data were processed

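RNA of 15 tissue samples was measured on 1-colour Agilent arrays. The deposited scanner files hold intensity values, per the file headers already background-subtracted and detrended within each array by Agilent Feature Extraction 10.10.1.1. The authors also deposited log2 values, used as an alternative: for at least 99.78% of probes on every array they equalled the values analysed here to within 0.01, apart from a small constant. Here log2 processed signal minus the array's 75th percentile was analysed. Spots of a probe were averaged, and probes well above background on every array of at least 1 group were kept (34992 of 55681). Symbols came from RefSeq accessions, for 20391 kept probes, and the probe with the highest mean stood for a gene, giving 15622 genes. No spot was saturated, and the number of arrays limits the precision.

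A mean per group was fitted to all 15 arrays with limma 3.58.1 (R 4.3.3, statmod 1.5.0). Two-sided p were adjusted by Benjamini and Hochberg's method over all genes of a comparison, and a gene under 0.05 was called. The procedure was tested on simulated data with known changes. Depending on the comparison, it recovered 56% to 67% of log2 changes of 1 and 81% to 94% of changes of 2. A gene that was not called may therefore still differ. The 10 genes and all lists were chosen with earlier results of these data known. Besides the 10, up to 3 called genes with the largest rise and fall per list and comparison may be named, and the 5 nearest in profile to Stab2 and Clec4g. "At least" folds are against the higher of a dim probe's own signal and the lowest signal above background on each array. For the kidney share, an array's linear signal above control liver was expressed as a percentage of host kidney's, and the median was taken over kidney markers with at least an 8-fold difference between these organs.

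In 12 of 12 same-number pairs of host tissues the residuals were correlated (r 0.179 to 0.577) and each array correlated best with its own number, so numbers were taken as mice. Control livers share numbers with them only. Alternatives were normexp (on median signals, as the files held no mean spot signal, offset 50), quantile normalization, median centring, the deposited values, other filters, the mean over probes, replicate and slide blocks, the 2 groups alone, centring on endothelium genes, kidney subtraction and leaving out arrays. Subtraction with rescaling was added after seeing the data.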

Additional observations from a re-analysis of the deposited data

Results flagged for a closer look

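In 33 groups of 4 arrays, 3 held an array far from the other three, where chance gives about 1 in 20 groups. Clec4g was at -3.03 on host kidney 2, against -3.36 on the next kidney array. Dnase1l3 was at -4.50 on host kidney 1, against -4.71 on the next. Dnase1l3 was at -0.49 on neo-liver 1, against -0.99 on the next neo-liver array. Neo-liver 1 was the highest of its group for all 10 sinusoidal genes, and without each neo-liver array in turn Dnase1l3 stayed called lower in both liver comparisons.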

How the results depend on the processing

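The counts of the 10 genes called higher or lower were compared over all alternatives, and 221 of 228 counts stayed within 1.5 times. Many of these counts were 0 or 10 of 10, with little room to move. The 7 that moved were counts lower in neo-liver against host or control liver, and the count higher in host liver against control liver. Quantile normalization gave 4 genes lower in neo-liver against host liver and 3 against control liver, in place of 7 each. It moved the median of all genes to -0.07 and -0.02, against -0.21 and -0.15. Subtracting the kidney share and rescaling gave 4 and 2. Leaving out 1 array in turn gave 6 to 9 called lower against host liver (27.2% to 31.6% of all genes). Against control liver it gave 4 to 8 lower (23.3% to 28.5% of all genes). In host liver, 0 to 1 were called higher than in control liver (7.72% to 14.3% of all genes). Against host kidney the calls were 10 higher in each such fit (for neo-liver, 20.8% to 22.8% of all genes). With mice as a replicate block, 10 were called higher in neo-liver than in host kidney (26.1% of all genes). Against host liver 1 was higher and 7 lower (18.9% and 37.1% of all genes), so the pairing changed no count of the 10. The slide as a random block gave the same counts, with a residual correlation of 0.0371. Only the host livers were spread over 2 slides. This fit therefore cannot separate slide from group in comparisons with host liver or host kidney. For single genes 35 fits lost a call, 8 gained one and none reversed a sign among called values. Causes of the lost calls were not tested. Kidney levels of Lyve1 and Oit3, above background on 1 of 4 arrays, limit their folds against kidney.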
